A study of Mus musculus with 39 samples.

Results

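The basement membrane is the thin sheet of extracellular matrix on which epithelia rest, and 10 mouse genes that encode its core parts or a matrix protein that binds them were followed here by symbol, out of the 34835 genes named in the 5 expression tables. They were the laminin chains Lama1, Lama5, Lamb1 and Lamc1, the collagen IV chains Col4a1 and Col4a2, the linker proteins Nid1 and Nid2, the proteoglycan perlecan (Hspg2) and the collagen-binding glycoprotein Sparc. All 10 were present in every table and passed the filter on low values in each comparison. The study turned granulosa cells, which line the ovarian follicle and nurse its oocyte, into pluripotent stem cells and led those towards germ cells. All 39 libraries came from the C57BL6/CBA strain, were made from total RNA, and were deposited as FPKM values, that is fragments scaled by a length for each gene and by library size.

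The reprogramming table held 2 libraries each of cells at day 28 with crotonic acid (7 mM from day 16 to day 28), of cells at day 28 without it, and of cells at day 16, which the study also calls XEN-like after the extraembryonic endoderm stem cells they resemble. The lines table held 6 pluripotent lines derived from granulosa cells (gPSC lines 2, 4, 10, 11, 15 and 16), with 1 library a line, and 1 library of granulosa cells. A further table held 2 libraries of a female embryonic stem (ES) cell line with 1 library of granulosa cells and 1 of mouse embryonic fibroblasts, and the remaining library, also of fibroblasts, stood in a table of its own. The induction table held 3 libraries each of 7 groups. These were line gPSC4 and a female ES cell line, the epiblast-like cells (EpiLC) formed from both in 2 days with KSR, bFGF and Activin A, the primordial germ cell-like cells (PGCLC) formed after 4 more days with BMP4, SCF, EGF and LIF, and E12.5 primordial germ cells (PGC) of the embryo. The labels do not say whether libraries of a group came from separate cultures or animals, so p-values measure only the spread between these libraries, and each gPSC line is a single line.

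Laminins are trimers of an alpha, a beta and a gamma chain that polymerise on the cell surface through integrins and dystroglycan. Collagen IV forms a second, cross-linked network, and nidogens and perlecan bridge the networks. In the early mouse embryo, parietal endoderm lays down large amounts of laminin with the Lama1 chain, collagen IV and Sparc in Reichert's membrane, primitive endoderm and epiblast are separated by a basement membrane, and granulosa cells of the follicle rest on one.

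The genes lie on separate chromosomes except for the collagen IV pair. In the RefSeq annotation of GRCm38.p6, the patch release of the mm10 build named in the submitters' processing notes, Lamc1 lies at chr1:153218922-153332786, Lama5 at chr2:180176373-180225904 and Hspg2 at chr4:137468751-137570630. Sparc lies at chr11:55394159-55420080, Lamb1 at chr12:31265146-31329644, Nid1 at chr13:13437602-13512275, Nid2 at chr14:19751257-19811787 and Lama1 at chr17:67697127-67822645. Col4a1 (chr8:11198423-11312889, minus strand) and Col4a2 (chr8:11312805-11449287, plus strand) stand head to head, and the start sites of their promoter entries are 21 bases apart. Their promoter windows, from 250 bases before to 50 after the start, are shown because the windows of these partner chains of the collagen IV trimer overlap. Whether the overlap bears on their levels was not tested. The capitals mark the 78 bases, chr8:11312777-11312854, that both windows share, read 5′ to 3′ on each gene's own strand, so that one run is the reverse complement of the other. The Col4a1 window covers chr8:11312777-11313076 and the Col4a2 window chr8:11312555-11312854.

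Col4a1: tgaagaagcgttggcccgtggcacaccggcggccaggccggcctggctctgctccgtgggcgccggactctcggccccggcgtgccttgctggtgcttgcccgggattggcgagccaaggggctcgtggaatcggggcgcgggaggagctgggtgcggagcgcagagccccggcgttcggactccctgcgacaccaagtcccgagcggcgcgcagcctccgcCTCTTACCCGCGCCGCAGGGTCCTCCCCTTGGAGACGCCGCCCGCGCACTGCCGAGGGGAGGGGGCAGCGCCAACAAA

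Col4a2: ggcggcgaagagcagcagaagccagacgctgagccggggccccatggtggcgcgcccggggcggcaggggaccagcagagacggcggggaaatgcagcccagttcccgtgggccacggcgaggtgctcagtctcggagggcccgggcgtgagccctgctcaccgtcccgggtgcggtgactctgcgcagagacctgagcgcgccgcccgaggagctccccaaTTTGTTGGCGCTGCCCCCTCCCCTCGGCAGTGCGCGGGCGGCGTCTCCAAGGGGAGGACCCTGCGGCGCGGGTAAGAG

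Promoters were matched for 7 of the 10 genes, and those of Lama1, Lamc1 and Nid2 were not used here. The letters GGGCGG, searched on both strands, stood once in the Col4a1 window, 3 times in that of Col4a2, 5 times in that of Hspg2, 4 times in that of Lama5, 2 times in that of Lamb1 and once in that of Nid1, while the Sparc window held 0. They stood in 35.9% of the 27025 promoters of the table. The letters CCAAT, on both strands, were found once each in the windows of Col4a1, Col4a2, Lamb1 and Nid1 and in 37.9% of all promoters. The letters TATAAA were found in none of the 7 windows and in 14.2% of all promoters. The share of G and C in the windows was 74% for Col4a1, 73.7% for Col4a2 and 55.3% for Sparc, against a median of 52.7% over all promoters.

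Across the series the libraries summed to between 386624 and 1067671 FPKM and held 11268 to 12979 genes at 1 FPKM or more, and no pair of libraries was identical. Depth is unknown outside the induction table, whose values came back to whole reads and totals of 6107225 to 25222507 reads per library. Markers of the labelled cell types were present. The day 16 cells held all 7 primitive endoderm markers at 1 FPKM or more, against 4 of 7 in the gPSC lines, while all 7 parietal endoderm markers were at 1 FPKM or more in the day 16 cells, the gPSC lines and the ES cells alike, and the day 16 cells also held 7 of 8 fibroblast and 6 of 6 gonad soma markers. The gPSC lines had summed pluripotency markers of 2992.3 to 3655.8 FPKM against 2.78 FPKM in granulosa cells, and the granulosa library of the lines table had summed granulosa markers of 10205 FPKM. In the reprogramming table the 2 libraries of each group differed along transcript length. Spearman's rho of the difference between replicates 1 and 2 with length, across 11242 genes that are not independent, was -0.510 in the crotonic acid cells, -0.422 at day 28 and -0.680 at day 16.

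At day 28 of reprogramming, Lama1, Lamb1 and Nid2 rose against the day 16 cells, by 1.58 to 2.09 on the log2(FPKM + 1) scale. Sparc and the collagen IV chains, already the most abundant of the 10 at day 16, did not pass the test. A gene was called changed when limma's adjusted p over all genes tested was under 0.05 and the log2 difference at least 1. By that rule 3 of the 10 genes rose and 0 fell, where 4.51% of the 13266 genes tested rose, 0.829% fell and 5.34% changed in either direction. That is 598 genes higher and 110 lower, a split that quantile normalisation moved to 339 and 210, and leaving out day 16 replicate 2 raised the total of 708 to 1144, while leaving out day 28 replicate 1 lowered it to 472. The median difference of the 10 genes was 0.51, beside 0.15 over all genes, and relative to that shift Lama1 lay at 1.68, Lamb1 at 1.95 and Nid2 at 1.43. Scaling by median ratios brought the median of all genes to 0.03 and quantile normalisation to -0.02, and the same 3 genes stayed called.

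Lama1, the alpha chain of laminin-111 and the laminin of the early embryo, had 55.4 and 53.6 FPKM in the day 28 cells, against 12.4 and 17.1 FPKM in the day 16 cells. Both day 28 libraries stood well above both day 16 libraries. The log2 difference was 1.83 ± 0.18 (SE, n = 2 each; limma adjusted p = 0.00191). Lamb1, the beta chain that pairs with it, had 79.3 and 76.2 FPKM at day 28, against 14.5 and 20.9 FPKM at day 16, again with no overlap. Its difference was the largest of the 10, at 2.09 ± 0.18 (adjusted p = 0.00149). Lamc1, the gamma chain shared by most laminins, had 74.4 and 79.1 FPKM at day 28 and 35.1 and 57.2 FPKM at day 16. The groups did not overlap, but the day 16 libraries lay apart from each other, and the difference of 0.76 ± 0.23 had an adjusted p of 0.0648. Without day 16 replicate 2 the difference of Lamc1 was 1.11 with an adjusted p of 0.000765, the only further call among the 10 when single libraries were left out. Lama5, the alpha chain of most adult epithelial laminins, had 36.1 and 38.0 FPKM at day 28 and 20.6 and 34.6 FPKM at day 16, a difference of 0.46 (adjusted p = 0.176).

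The collagen IV chains were among the more abundant transcripts of these cells in each group. Col4a1 had 437 and 453 FPKM at day 28 and 246 and 366 FPKM at day 16, and Col4a2 392 and 404 FPKM at day 28 and 286 and 345 FPKM at day 16. Both day 28 libraries lay above both day 16 libraries in each gene, but the differences of 0.57 for Col4a1 (adjusted p = 0.0884) and 0.34 for Col4a2 (adjusted p = 0.106) did not pass. Sparc, a secreted glycoprotein that binds collagen IV, had 1115 and 1086 FPKM at day 28 and 1335 and 1192 FPKM at day 16. It was the highest of the 10 genes in every library of this table, and its difference was -0.20 ± 0.15 (adjusted p = 0.336). Hspg2, perlecan, had 127 and 138 FPKM at day 28 and 83.1 and 122 FPKM at day 16, with no overlap and an adjusted p of 0.165.

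The nidogens, a pair of paralogous proteins that tie laminin to collagen IV, moved apart. Nid2 had 15.9 and 15.1 FPKM at day 28, against 4.11 and 4.97 FPKM at day 16. Its groups did not overlap, and the log2 difference was 1.58 ± 0.12 (adjusted p = 0.00109). Nid1 had 14.0 and 17.8 FPKM at day 28 and 22.6 and 28.6 FPKM at day 16. Here the day 16 libraries were the higher ones, and the difference of -0.66 ± 0.17 had an adjusted p of 0.0442 but stayed under the minimum difference of 1.

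**Figure D1:**
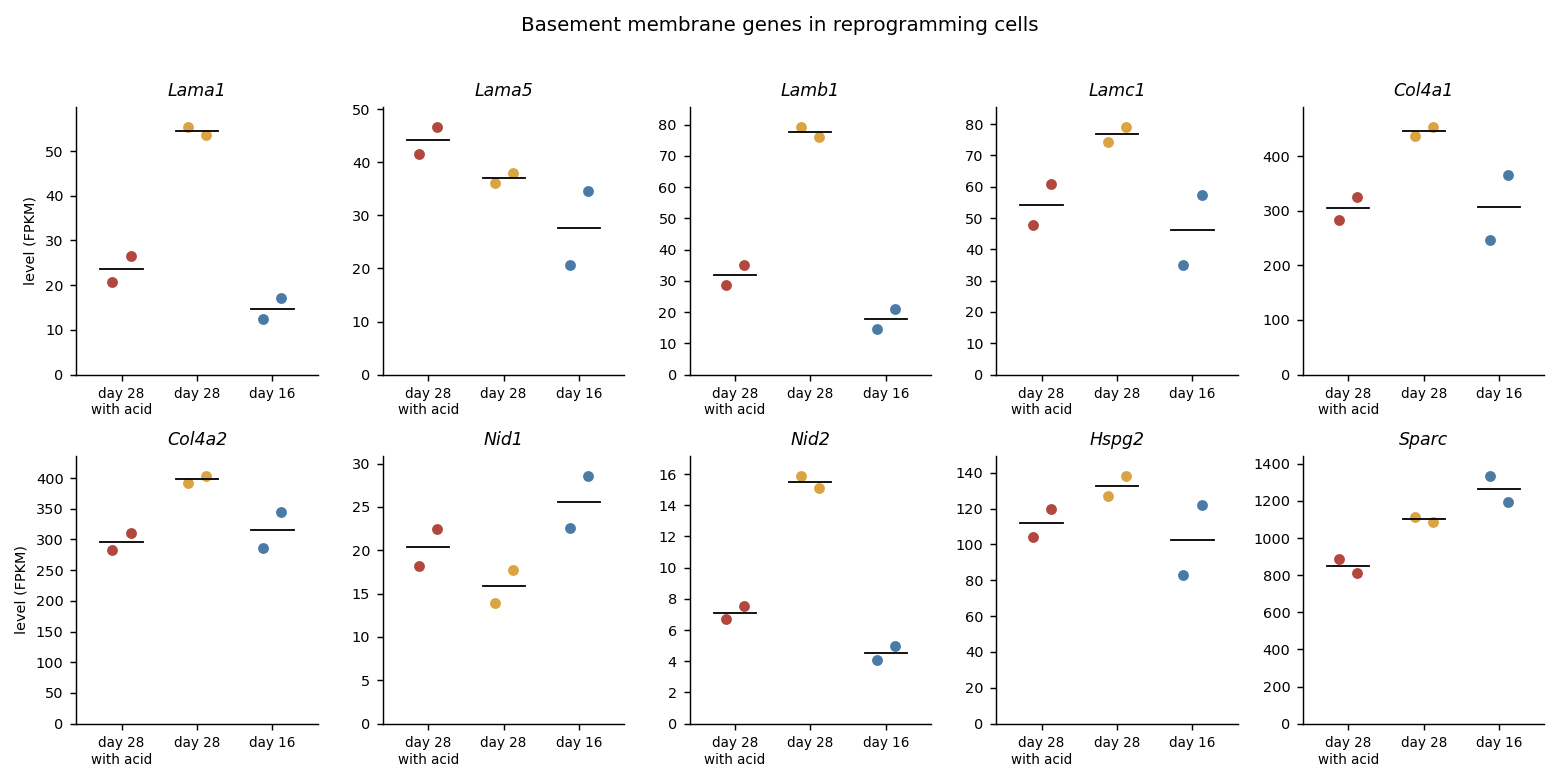
FPKM of the 10 genes in the reprogramming table, one panel a gene with its own axis. Points are libraries of the day 28 cells with crotonic acid, the day 28 cells and the day 16 cells (n = 2 each) and bars are group means. Lama1, Lamb1 and Nid2 peak in the day 28 cells without crotonic acid, while Nid1 and Sparc are highest in the day 16 cells.

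Cells kept in 7 mM crotonic acid from day 16 had less Lama1, Lamb1 and Nid2 at day 28 than cells without it, by 1.02 to 1.26 on the log2 scale. These are the genes that rose between day 16 and day 28, and the day 28 libraries without the acid enter both comparisons. Lama1 had 20.7 and 26.6 FPKM with crotonic acid, against the 55.4 and 53.6 FPKM given above without it, a difference of -1.18 ± 0.18 (SE, n = 2 each; limma adjusted p = 0.0173). For Lamb1 the crotonic acid libraries had 28.7 and 35.2 FPKM, which gave -1.26 ± 0.18 (adjusted p = 0.0153), and for Nid2 they had 6.70 and 7.54 FPKM, which gave -1.02 ± 0.12 (adjusted p = 0.0103). In all 3 genes the crotonic acid libraries lay between the day 28 and the day 16 libraries, with no overlap on either side. Thus 3 of the 10 fell and 0 rose, where 1.20% of all genes fell, 0.852% rose and 2.05% changed. The median of the 10 was -0.46, beside -0.05 over all genes.

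These 3 calls rest on every library. Leaving out crotonic acid replicate 1 or 2, or day 28 replicate 1 or 2, ended all of them, with adjusted p between 0.0993 and 0.165 and differences of -1.36 to -1.01 for Lama1, -1.41 to -1.12 for Lamb1 and -1.10 to -0.95 for Nid2. Over all genes the number called was 272 with every library and 0 to 4 with any of the 4 left out. Nid2 also came under the minimum difference with median-ratio scaling (-0.98), quantile normalisation (-0.99) and transcript-length bins centred (-0.94). Without the filter on low values Lama1 and Lamb1 had limma adjusted p of 0.0643 and 0.061.

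The other 7 genes did not pass. Col4a1 had 284 and 326 FPKM with crotonic acid and 437 and 453 FPKM without it, Col4a2 283 and 310.0 FPKM with it and 392 and 404 FPKM without it, and Lamc1 47.7 and 60.8 FPKM with it and 74.4 and 79.1 FPKM without it. In each of these the crotonic acid libraries were the lower ones, with adjusted p of 0.181 for Col4a1, 0.119 for Col4a2 and 0.293 for Lamc1. Sparc had 887 and 809.7 FPKM with crotonic acid, its lowest values of the table, and Hspg2 104 and 120.0 FPKM, with adjusted p of 0.204 and 0.542 against day 28. Lama5 and Nid1 had higher means with crotonic acid. Lama5 had 41.6 and 46.7 FPKM with it and 36.1 and 38.0 FPKM without it, and Nid1 18.2 and 22.4 FPKM with it and 14.0 and 17.8 FPKM without it, with adjusted p of 0.622 and 0.336.

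Set against day 16, the crotonic acid cells had 0 of the 10 genes called by limma, where 3.73% of all genes were called, and 5 of the 10 had an unadjusted p under 0.05, as had 33.1% of all genes. Lamb1 differed by 0.83 ± 0.18 (adjusted p = 0.0328), Nid2 by 0.55 ± 0.12 (adjusted p = 0.0329) and Sparc by -0.57 ± 0.15 (adjusted p = 0.049), all under the minimum difference. Without day 16 replicate 2, Lamb1 at 1.08 and Lama5 at 1.06 were called. The collagen chains overlapped between these groups, with differences of 0.02 for Col4a1 and -0.09 for Col4a2. The 10 genes had a median of 0.20, beside 0.10 over all genes.

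Of the genes on 5 wider lists, 6 of 48 tested were called between day 28 and day 16, beside 5.34% of all genes, and 2 of 48 with crotonic acid against without it, beside 2.05%. Between day 28 and day 16, 2 of 12 genes for collagen IV folding, secretion and cross-linking rose, P4ha2, a prolyl hydroxylase subunit, by 1.27 and Plod2, a lysyl hydroxylase, by 1.45. Of 14 other network genes 2 rose, the proteoglycan Agrn by 1.69 and the fibulin Fbln1 by 1.77. Among 11 receptors only Itgb4, the beta chain of the laminin-binding integrin of hemidesmosomes, rose, by 1.17, of 7 proteases and inhibitors Timp1, a metalloprotease inhibitor, fell by 1.45, and 0 of 4 other laminin chains passed. The list medians ran from -0.43 for proteases and inhibitors to 0.34 for folding genes. With crotonic acid against without it, P4ha2 fell by 1.09 (20.9 and 24.8 FPKM with it, against 46.4 and 53.2 FPKM without it) and Fbln1 fell by 1.40 (8.0 and 9.67 FPKM with it, against 23.5 and 26.3 FPKM without it). No receptor, protease or other laminin chain of these lists was called there. Against day 16, the crotonic acid cells had Agrn higher by 1.04 and Fbln2 lower, at -1.37.

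Markers of several cell types also changed in these comparisons, not all in the direction of these genes. Of the endoderm lists at day 28 against day 16, 5 of 8 visceral endoderm markers rose (among them Afp by 2.27 and Ihh by 2.31), 3 of 7 primitive endoderm markers (Sox7 by 2.33, Sox17 by 1.98 and Pdgfra by 1.03) and 2 of 7 parietal endoderm markers (Pth1r by 3.12 and Snai1 by 2.26). With crotonic acid against without it, 2 of 7 parietal markers (Pth1r, -1.93, and Snai1, -1.34), 2 of 7 primitive markers (Sox7, -1.83, and Sox17, -1.34) and 2 of 8 visceral markers (Ihh, -1.62, and Cubn, -1.17) fell. Other markers of the same lists had positive differences that were not called, among them Apob (0.77) and Foxa2 (0.64). Summed over the list of 7, parietal endoderm markers had 1312.5 to 1369.2 FPKM with crotonic acid, 1492.8 to 1510.3 FPKM at day 28 and 1758.6 to 1912.8 FPKM at day 16. Most of these sums came from Vim, at means of 864.8, 914 and 1148 FPKM in that order. They thus do not follow Pth1r and Snai1, which rose from day 16 to day 28. Primitive endoderm markers summed to 229.96 to 250.61 FPKM with crotonic acid, 327.44 to 332.8 FPKM at day 28 and 252.95 to 282.45 FPKM at day 16. The 9 visceral endoderm markers had 64.81 to 67.54 FPKM with crotonic acid, 74.04 to 78.15 FPKM at day 28 and 23.95 to 36.8 FPKM at day 16. Fibroblast markers had 885.45 to 910.88 FPKM with crotonic acid, 1289 to 1342.6 FPKM at day 28 and 988.76 to 1023.6 FPKM at day 16. Gonad soma markers had 403.91 to 407.79 FPKM, 622.26 to 634.05 FPKM and 557.18 to 604.2 FPKM in that order. Endothelial and blood markers had 15.53 to 17.64 FPKM, 21.01 to 24.64 FPKM and 17.3 to 21.29 FPKM. At day 28 against day 16, 1 of 6 gonad soma and 1 of 5 granulosa markers tested fell. In the same comparison 1 of 8 fibroblast, 1 of 3 endothelial and blood and 2 of 6 pluripotency markers rose. With crotonic acid against without it, 1 of 6 gonad soma markers and 1 of 3 endothelial and blood markers tested fell, and 4 of 6 pluripotency markers rose. Granulosa markers had 660.76 to 701.31 FPKM with crotonic acid, 573.81 to 599.71 FPKM at day 28 and 1254.9 to 1355.1 FPKM at day 16, mostly from Cyp11a1, with 5 of 8 at 1 FPKM or more in each group and Cyp19a1 at 0 in every library. Pluripotency markers summed to 78.33 to 82.24 FPKM with crotonic acid, 21.02 to 25.25 FPKM at day 28 and 0.63 to 1.19 FPKM at day 16. In these bulk samples fewer cells of a type and less RNA per cell cannot be told apart, and the part of a changed cell mixture in the results was not tested.

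In the gPSC lines the laminin chains Lama5, Lamb1 and Lamc1 and both nidogens were higher than in the granulosa cells the lines were derived from, and Lama1, both collagen IV chains and Sparc were lower. That made 5 genes higher and 4 lower out of 10, where 21.8% of the 13797 genes tested were higher, 17.7% lower and 39.5% called in either direction. The median of the 10 was 0.14, beside 0.09 over all genes. The granulosa group is 1 library, taken to vary as the lines do. In every one of the 10 genes all 6 lines lay on one side of that library, but the share of all genes with such a separation was not counted. At an unadjusted limma p under 0.05 were 10 of the 10 genes, beside 74.5% of all genes.

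The 2 laminin alpha chains stood in opposite order. Lama5 had 20.7 FPKM in the lowest line, a median of 32.0 FPKM and 34.5 FPKM in the highest, against 1.13 FPKM in granulosa cells. Lama1 ran from 3.80 FPKM over a median of 4.49 FPKM to 6.42 FPKM in the lines, against 20.2 FPKM in granulosa cells. The differences were 3.84 ± 0.25 for Lama5 (SE, n = 6 and 1; limma adjusted p = 7.32e-06) and -1.88 ± 0.24 for Lama1 (adjusted p = 0.000209). Lamb1 ran from 28.8 over 41.1 to 54.3 FPKM in the lines, against 17.1 FPKM in granulosa cells, and Lamc1 from 53.4 over 75.3 to 81.1 FPKM, against 25.7 FPKM. Both chains were thus higher in every line, by 1.20 ± 0.31 (adjusted p = 0.0084) and 1.43 ± 0.20 (adjusted p = 0.000422).

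Nid1 and Nid2 were near the low end of the 10 genes in granulosa cells and rose the most along with Lama5. Nid1 ran from 45.7 over 60.7 to 74.9 FPKM in the lines, against 4.46 FPKM in granulosa cells, and Nid2 from 65.6 over 72.4 to 78.2 FPKM, against 4.04 FPKM. The differences were 3.45 ± 0.24 (limma adjusted p = 9.92e-06) and 3.85 ± 0.12 (adjusted p = 2e-07), and Nid2 had the smallest SE of the 10.

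Collagen IV showed the reverse. Col4a1 ran from 55.4 over 72.3 to 104 FPKM in the lines, against 536 FPKM in granulosa cells, and Col4a2 from 42.2 over 54.3 to 80.9 FPKM, against 280.2 FPKM. The highest line, gPSC2, stayed far under the granulosa library in both genes, and the differences were -2.83 ± 0.30 (limma adjusted p = 8.54e-05) and -2.29 ± 0.32 (adjusted p = 0.00039). Sparc ran from 446 over 519.7 to 801 FPKM in the lines, against 1352 FPKM, a difference of -1.26 ± 0.31 (adjusted p = 0.00693). Hspg2 ran from 30.9 over 50.4 to 60.9 FPKM, against 86.4 FPKM. No line reached the granulosa level, but the difference of -0.91 ± 0.36 had an adjusted p of 0.0522. Quantile normalisation gave -1.02 for Hspg2 with an adjusted p of 0.0415.

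Among the 6 lines, gPSC2 had the highest value for Col4a1, Col4a2, Lamb1, Nid1 and Sparc, while gPSC11 or gPSC15 had the lowest for 9 of the 10 genes. Sparc was the exception, with its lowest value in gPSC16. Each line is 1 library, so differences between lines have no replicate check.

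**Figure D2:**
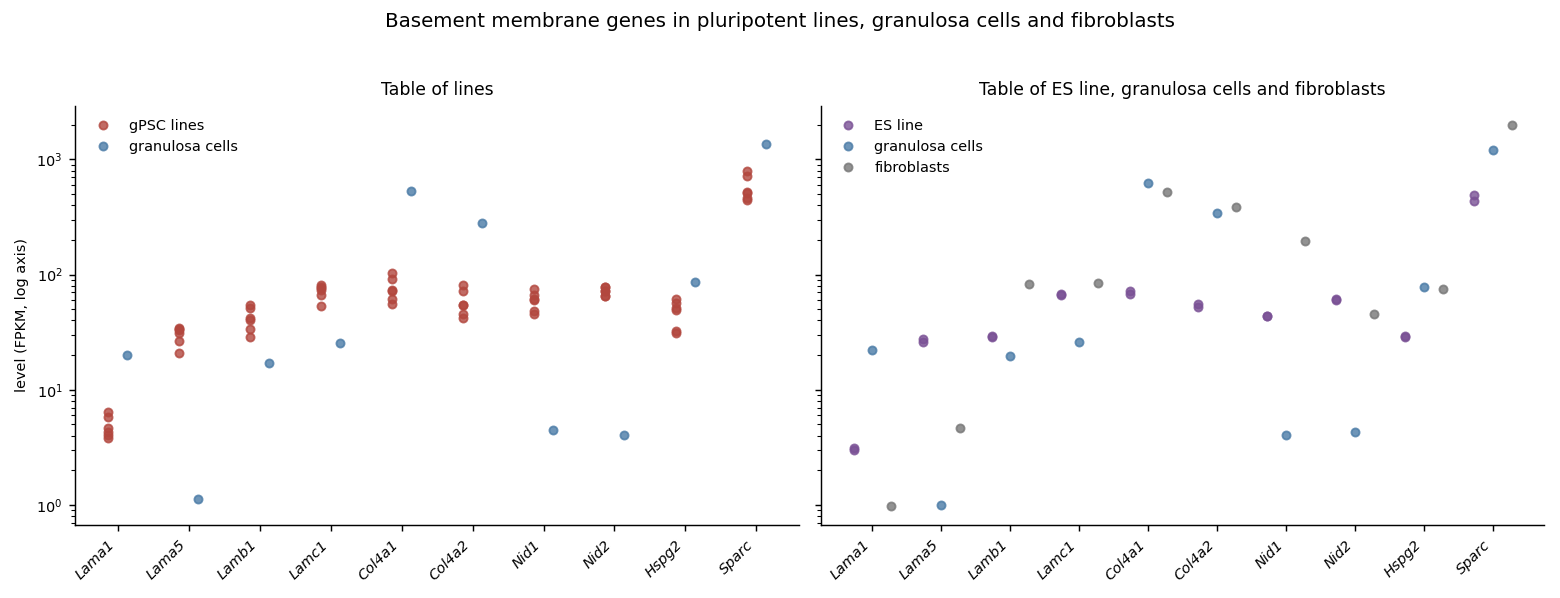
FPKM of the 10 genes on a log axis in the 6 gPSC lines and the granulosa cells of the lines table, and in the ES cells, granulosa cells and fibroblasts of the ES table. Points are libraries. Lama5, Nid1 and Nid2 sit lowest in granulosa cells, and Col4a1 and Col4a2 sit several-fold higher there than in either kind of pluripotent cell.

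The ES cell line was set against the granulosa library of its own table. Of the 10 genes 4 were higher (Lama5, Nid2, Nid1 and Lamc1) and 5 lower (Col4a1, Col4a2, Lama1, Hspg2 and Sparc), where 19.8% of the 13245 genes tested were higher, 18.1% lower and 37.9% called. The fit has 1 residual degree of freedom, from the 2 ES libraries, so its errors stand on very little. Lama5 had 27.7 and 25.8 FPKM in ES cells, against 1.00 FPKM in granulosa cells, a difference of 3.79 ± 0.09 (SE, n = 2 and 1; limma adjusted p = 0.000343). Col4a1 had 71.9 and 67.5 FPKM in ES cells, against 624.8 FPKM, and Col4a2 56.1 and 52.5 FPKM, against 346 FPKM. The differences of these collagen chains were -3.15 and -2.65. Nid1 had 44.1 and 43.7 FPKM, against 4.05 FPKM, and Nid2 60.9 and 59.9 FPKM, against 4.30 FPKM, so that both ES libraries stood far above the granulosa library in each. Lama1 had 3.11 and 2.99 FPKM in ES cells, against 22.3 FPKM, and Lamb1 29.2 and 28.7 FPKM, against 19.7 FPKM. The difference of Lamb1, 0.53, stayed under the minimum.

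The 2 tables were normalised apart, so their levels are set side by side only. The granulosa libraries of the lines table and of the ES table had 536 and 624.8 FPKM of Col4a1, 20.2 and 22.3 FPKM of Lama1, 1.13 and 1.00 FPKM of Lama5 and 1352 and 1197 FPKM of Sparc. Fibroblasts of the ES table had 524 FPKM of Col4a1 and 2000.4 FPKM of Sparc, and also 195 FPKM of Nid1 and 83.2 FPKM of Lamb1, the highest values of that table in both genes. Lama1 was at 0.98 FPKM in the same fibroblasts, the lowest of that table. The second fibroblast library, in its own table, had 349 FPKM of Col4a1, 2871 FPKM of Sparc, 184 FPKM of Nid1, 70.9 FPKM of Lamb1 and 2.91 FPKM of Lama1.

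In the wider lists 31 of 51 genes tested were called between lines and granulosa cells, beside 39.5% of all genes. Of 15 network genes, 6 were higher and 6 lower, with Col18a1, the endostatin-bearing collagen of basement membranes, at 69.9 to 84.7 FPKM in the lines, against 0.60 FPKM in granulosa cells (5.58), and Tinagl1, a secreted matrix glycoprotein, at 6.72 to 14.4 FPKM, against 461 FPKM (-5.53). Col4a6, a chain of a distinct collagen IV trimer, differed by -4.63 and the netrin Ntn4, which binds laminin, by -3.88. Of 5 other laminin chains 3 were higher, among them Lama3 by 2.15 and Lama2 by 1.11, and Lamb2 was lower (-1.56). Of 12 receptors 3 were higher and 6 lower, with dystroglycan (Dag1) at -3.27, the syndecan Sdc1 at -2.80, the collagen receptor Ddr1 at -2.32 and Bcam, a laminin alpha-5 receptor, at 1.75 among them. Of 12 folding and cross-linking genes Lox was higher by 2.14, and Plod2 (-1.73), Serpinh1, the collagen chaperone (-1.66), and Pxdn, the peroxidase that cross-links collagen IV (-1.44), were lower. Of 7 proteases and inhibitors Htra1 (-4.54) and Ctsl (-2.25) were lower. The list medians were 0.46 for network genes, 1.11 for other laminin chains, -0.75 for receptors, -0.06 for folding genes and -0.09 for proteases and inhibitors. ES cells against granulosa cells had Ntn4 (-5.39), Tinagl1 (-5.32), Col18a1 (5.10) and Col4a6 (-4.80) as the largest network differences, with 6 of 15 higher and 7 lower. The largest receptor differences there were Sdc1 (-3.77), Ddr1 (-2.80), Dag1 (-2.62) and Sdc4 (-1.76), with 4 of 12 higher and 6 lower. Lox (2.62), Pxdn (-1.71), Plod2 (-1.55) and Serpinh1 (-1.53) were called among 12 folding genes, Lama3 (2.54) and Lamb2 (-2.09) were among the calls in 5 other laminin chains, and 3 of 8 proteases and inhibitors were lower.

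Markers of fibroblasts, which make collagens and Sparc, were present in the pluripotent cells. All 8 of the list were at 1 FPKM or more in the lines and all 8 were called higher than in granulosa cells, with Col1a1 the most abundant and sums of 917.04 to 1924.3 FPKM in the lines, against 48.31 FPKM in granulosa cells. In the ES table the list summed to 1009.4 to 1082.5 FPKM in ES cells, 51.78 FPKM in granulosa cells and 8189.4 FPKM in fibroblasts. Granulosa markers summed to 4.91 to 11.81 FPKM in the lines, with Fshr at 0, and to 1.67 to 1.95 FPKM in ES cells. The part of other cells in the levels of these cultures was not tested.

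When stem cells became epiblast-like cells, Lama1, Nid1, Sparc, Lamc1 and Col4a2 fell in both lineages. Nid2 and Hspg2 fell in the ES lineage and had differences of -0.99 and -0.95, short of the minimum, in the gPSC4 lineage. Lama5 and Col4a1 were not called, and Lamb1 was the one gene of the 10 with higher values in every EpiLC library than in every library of its stem cells. In the gPSC4 lineage 5 of 10 genes fell and 0 rose, where 10.3% of the 14059 genes tested fell, 10.1% rose and 20.4% changed. In the ES lineage 7 of 10 fell and 0 rose, where 11.3% fell, 9.64% rose and 21% changed. The medians of the 10 were -0.999 and -1.08, beside 0.01 and -0.00 over all genes. Each comparison had 3 libraries a group, with the spread estimated over all 21 libraries.

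Lama1 had 0.629, 0.312 and 0.264 FPKM in gPSC4 EpiLC, against 7.15, 7.03 and 7.37 FPKM in gPSC4 cells. In the ES lineage it had 0.441, 0.535 and 0.267 FPKM in EpiLC, against 6.4, 5.91 and 7.46 FPKM in ES cells. Every EpiLC library lay far below every stem cell library in both lineages, and the differences were -2.55 ± 0.20 (limma adjusted p = 4.25e-09) and -2.42 ± 0.20 (adjusted p = 9.01e-09). Lama5 had 7.85, 7.54 and 8.21 FPKM in gPSC4 EpiLC and 9.71, 7.48 and 7.89 FPKM in gPSC4 cells, with groups that overlapped. In the ES lineage it had 6.76, 7.35 and 8.16 FPKM in EpiLC and 9.70, 8.72 and 8.11 FPKM in ES cells, and these overlapped too. The differences of Lama5 were -0.07 and -0.23, with adjusted p of 0.785 and 0.327.

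Lamb1 had 20.7, 21.8 and 23.2 FPKM in gPSC4 EpiLC and 12.3, 11.9 and 12.9 FPKM in gPSC4 cells. In the ES lineage it had 21.1, 21.1 and 24.1 FPKM in EpiLC and 13.1, 13.8 and 14.4 FPKM in ES cells. No EpiLC library came down to a stem cell library, and the differences of 0.78 ± 0.13 (limma adjusted p = 5.07e-05) and 0.64 ± 0.13 (adjusted p = 0.000342) passed the p threshold but not the minimum difference. Its partner Lamc1 had 10.9, 21.5 and 22.4 FPKM in gPSC4 EpiLC, against 43.1, 36.8 and 56.5 FPKM in gPSC4 cells, and 9.65, 18.5 and 18.7 FPKM in ES-derived EpiLC, against 32.4, 34.3 and 32.4 FPKM in ES cells. All EpiLC libraries were lower, replicate 1 of each EpiLC group the lowest, and the differences were -1.31 ± 0.28 (adjusted p = 0.000789) and -1.09 ± 0.28 (adjusted p = 0.00362).

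Nid1 had 4.73, 7.11 and 5.85 FPKM in gPSC4 EpiLC, against 49.3, 54.6 and 42.2 FPKM in gPSC4 cells, and 5.18, 7.57 and 6.46 FPKM in ES-derived EpiLC, against 41.1, 51.5 and 42.9 FPKM in ES cells. These were the largest falls of the 10, -2.86 ± 0.22 (limma adjusted p = 2.22e-09) and -2.65 ± 0.22 (adjusted p = 6.73e-09). Nid2 fell less, to 33.9, 35.1 and 36.7 FPKM in gPSC4 EpiLC, against 72.0, 74.9 and 66.1 FPKM in gPSC4 cells, and to 32.9, 38.6 and 35.1 FPKM in ES-derived EpiLC, against 68.6, 76.1 and 74.8 FPKM in ES cells. Its differences of -0.99 ± 0.09 and -1.02 ± 0.09 lay on either side of the minimum of 1, so that it was called in the ES lineage and not in the gPSC4 lineage. Sparc averaged 170.3 ± 10.1 FPKM in gPSC4 EpiLC and 851 ± 62.5 FPKM in gPSC4 cells, and 184 ± 4.13 FPKM in ES-derived EpiLC and 863 ± 39.5 FPKM in ES cells (SD, n = 3 each). Its differences were -2.31 and -2.22, with the smallest errors of the 10 (0.07 each).

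The collagen IV chains were low throughout this table. In the ES table, normalised apart, ES cells had 67.5 and 71.9 FPKM of Col4a1 and 52.5 and 56.1 FPKM of Col4a2. The low level thus holds within the induction table only, and the reason for the gap was not tested. Col4a1 averaged 1.61 ± 0.158 FPKM in gPSC4 EpiLC and 2.68 ± 0.256 FPKM in gPSC4 cells, and 2.16 ± 1.05 FPKM in ES-derived EpiLC and 3.69 ± 0.230 FPKM in ES cells (SD, n = 3 each). The differences of -0.50 (limma adjusted p = 0.114) and -0.63 (adjusted p = 0.0456) were not called. Even so, every EpiLC library lay below every library of its stem cells. Voom on the recovered reads called Col4a1 in the ES lineage, at -1.10, while no setting called it in the gPSC4 lineage. Col4a2 averaged 0.454 ± 0.373 FPKM in gPSC4 EpiLC and 1.88 ± 0.296 FPKM in gPSC4 cells, and 0.683 ± 0.445 FPKM in ES-derived EpiLC and 2.48 ± 0.566 FPKM in ES cells. Its differences were -1.01 and -1.07, and its values rest on 11 to 380 reads a library over the 7 groups. Hspg2 averaged 1.96 ± 0.335 FPKM in gPSC4 EpiLC and 4.70 ± 0.397 FPKM in gPSC4 cells, a difference of -0.95, and 1.82 ± 0.508 FPKM in ES-derived EpiLC and 5.13 ± 0.418 FPKM in ES cells, with a difference of -1.14.

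Several calls of this step lie close to the minimum difference and turn on 1 library. In the ES lineage, leaving out EpiLC replicate 1 brought Lamc1 to -0.80, Nid2 to -0.97 and Col4a2 to -0.99, and 4 genes stayed called. Leaving out EpiLC replicate 2 brought Hspg2 to -0.99, leaving out EpiLC replicate 3 brought Col4a2 to -0.94, and leaving out one of the ES cell libraries, b or c, brought Nid2 to -0.99 or Col4a2 to -0.96. In the gPSC4 lineage Col4a2 came to between -0.97 and -0.90 without gPSC4 replicate 2 or 3 or EpiLC replicate 2 or 3, and Lamc1 to -0.997 without EpiLC replicate 1. There Nid2 was called at -1.04 without gPSC4 replicate 3 and at -1.02 without EpiLC replicate 3, and Hspg2 at -1.04 without EpiLC replicate 3. With every library, a pseudocount of 0.1 and voom on the recovered reads called both genes there. They gave -1.01 and -1.02 for Nid2 and -1.23 and -1.25 for Hspg2. In the ES lineage quantile normalisation brought Nid2 to -0.95 and Lamc1 to -0.98.

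**Figure D3:**
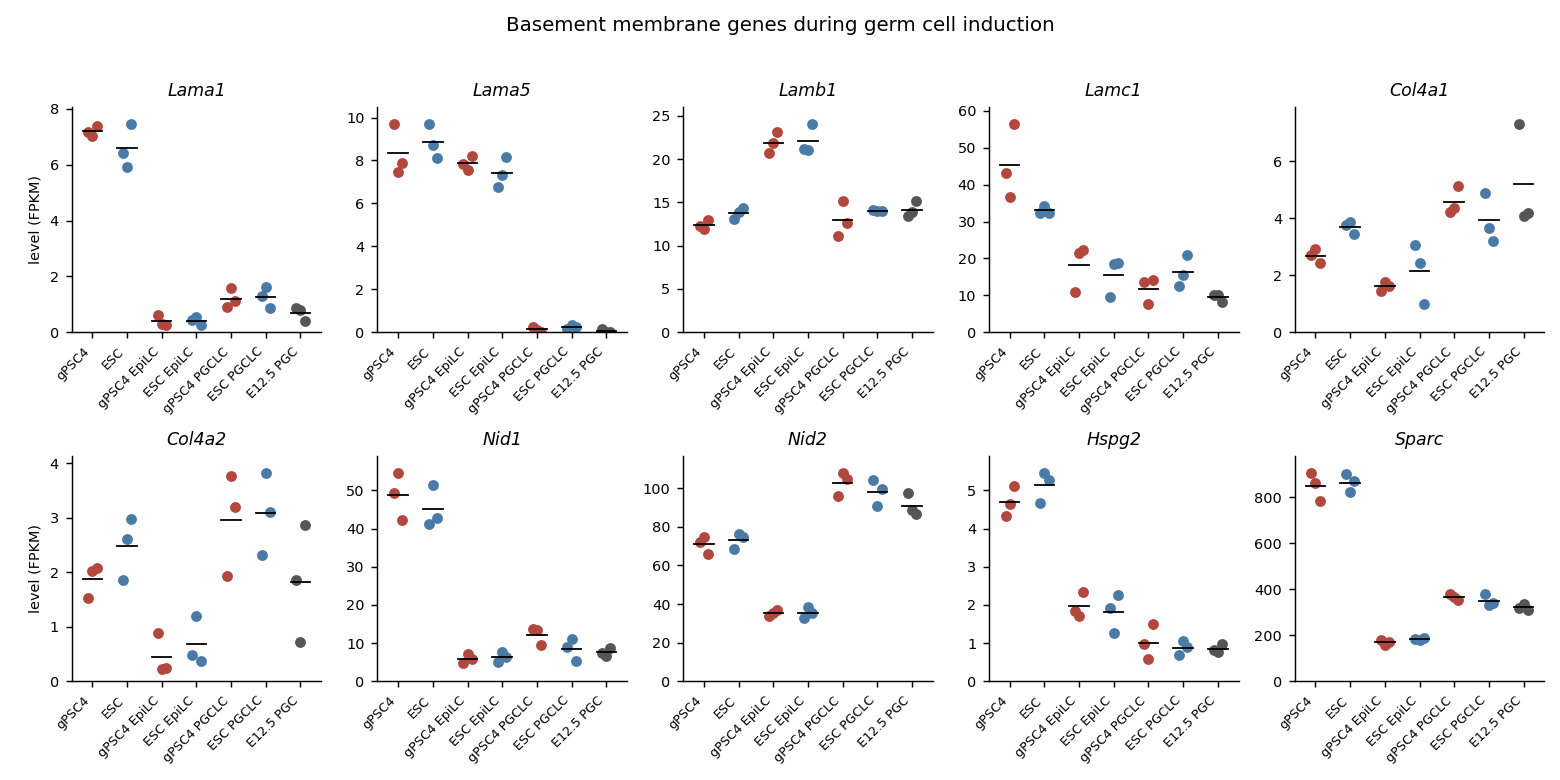
FPKM of the 10 genes in the 7 groups of the induction table, one panel a gene with its own axis. Points are libraries (n = 3 a group) and bars are group means. Lama1, Nid1 and Sparc are highest in gPSC4 and ES cells, Lamb1 in both EpiLC groups, and Nid2 in PGCLC and PGC, while Lama5 is close to 0 in PGCLC and PGC.

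Between EpiLC and PGCLC, Lama5 fell to near 0 and Nid2 and Col4a2 rose in both lineages. In the gPSC4 lineage 4 of 10 genes rose and 1 fell, where 15.8% of all genes rose, 13.9% fell and 29.7% changed. In the ES lineage 2 rose and 1 fell, where 16.7% rose, 12.7% fell and 29.3% changed. The medians of the 10 were 0.79 and 0.49, beside 0.08 and 0.10 over all genes.

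Lama5 had 0.247, 0.115 and 0.028 FPKM in gPSC4 PGCLC, against the 7.54 to 8.21 FPKM of gPSC4 EpiLC, and 0.149, 0.320 and 0.227 FPKM in ES-derived PGCLC, against 6.76 to 8.16 FPKM in ES-derived EpiLC. These PGCLC values rest on 46, 16 and 4 reads and on 23, 25 and 28 reads, and no PGCLC library came near an EpiLC library. The differences were -2.98 ± 0.18 (limma adjusted p = 3.3e-11) and -2.77 ± 0.18 (adjusted p = 8.63e-11) and understate the change of so low a gene, since 1 FPKM was added before taking logs. Nid2 had 95.8, 108 and 104 FPKM in gPSC4 PGCLC, against 33.9 to 36.7 FPKM in gPSC4 EpiLC, and 104, 90.6 and 99.7 FPKM in ES-derived PGCLC, against 32.9 to 38.6 FPKM in ES-derived EpiLC. It thus stood above the stem cells as well, and it rose by 1.52 ± 0.09 (adjusted p = 2.25e-11) and 1.44 ± 0.09 (adjusted p = 4.45e-11).

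Sparc averaged 367 ± 13.2 FPKM in gPSC4 PGCLC and 170.3 ± 10.1 FPKM in gPSC4 EpiLC, and 350.4 ± 24.4 FPKM in ES-derived PGCLC and 184 ± 4.13 FPKM in ES-derived EpiLC (SD, n = 3 each). It rose by 1.11 in the gPSC4 lineage, and the difference of 0.92 in the ES lineage (limma adjusted p = 4.41e-10) stayed under the minimum. Its PGCLC level did not return to that of stem cells in any library. Col4a2 averaged 2.96 ± 0.936 FPKM in gPSC4 PGCLC and 3.08 ± 0.752 FPKM in ES-derived PGCLC, and rose by 1.45 (adjusted p = 0.000326) and 1.29 (adjusted p = 0.000921). Col4a1 averaged 4.58 ± 0.495 FPKM in gPSC4 PGCLC, where it rose by 1.09 (adjusted p = 0.000913), and 3.92 ± 0.873 FPKM in ES-derived PGCLC, a difference of 0.68 (adjusted p = 0.0242). Even so, collagen IV stayed under 10 FPKM in every library of this table.

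The remaining genes were not called in this step. Lamb1 came back to 13.0 ± 2.02 FPKM in gPSC4 PGCLC and 14.1 ± 0.0676 FPKM in ES-derived PGCLC, with differences of -0.72 and -0.61 that passed the p threshold alone. Nid1 averaged 12.2 ± 2.25 FPKM in gPSC4 PGCLC and 8.5 ± 2.91 FPKM in ES-derived PGCLC, with differences of 0.94 (limma adjusted p = 0.00115) and 0.32 (adjusted p = 0.215). Lama1 averaged 1.20 ± 0.338 and 1.26 ± 0.386 FPKM, Hspg2 1.01 ± 0.460 and 0.880 ± 0.188 FPKM, and Lamc1 11.8 ± 3.62 and 16.4 ± 4.23 FPKM in gPSC4 and ES-derived PGCLC, and their differences from EpiLC ran from -0.58 to 0.67. Lama1 passed the p threshold, at 0.65 (adjusted p = 0.0106) and 0.67 (adjusted p = 0.00899), and a pseudocount of 0.1 in place of 1 gave 1.41 and 1.40, both called. Voom on the recovered reads gave 1.56 and 1.68 for Lama1, both called as well. Hspg2 also passed the p threshold, at -0.58 (limma adjusted p = 0.0226) and -0.57 (adjusted p = 0.0239). Voom gave -1.05 and -1.21 for Hspg2, both called.

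E12.5 primordial germ cells had less of 6 of the 10 genes than ES cells and more of none, where 14.7% of all genes were lower, 16.4% higher and 31.1% called. The median of the 10 was -1.56, beside 0.08 over all genes. Lama5 had 0.165, 0.010 and 0.014 FPKM in PGC (32, 1 and 2 reads), against 9.70, 8.72 and 8.11 FPKM in ES cells, a difference of -3.21 ± 0.18 (SE, n = 3 each; limma adjusted p = 8.9e-12). One PGC library held nearly all of its reads. Nid1 averaged 7.60 ± 1.14 FPKM in PGC and 45.2 ± 5.57 FPKM in ES cells (-2.43), and Lama1 0.688 ± 0.237 FPKM in PGC and 6.59 ± 0.796 FPKM in ES cells (-2.17). Hspg2 averaged 0.857 ± 0.116 FPKM in PGC and 5.13 ± 0.418 FPKM in ES cells (-1.72), and Lamc1 9.49 ± 1.10 FPKM in PGC and 33.0 ± 1.10 FPKM in ES cells (-1.70). Sparc averaged 321 ± 12.4 FPKM in PGC and 863 ± 39.5 FPKM in ES cells (-1.42). The values of PGC lay below those of ES cells in all libraries for these genes. Lamb1, Col4a1, Col4a2 and Nid2 were not called, with differences of 0.04, 0.36, -0.37 and 0.31, and Nid2 alone of them had an adjusted p under the threshold (0.00533).

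The mean levels over the 7 groups can be put in order, with neighbours described by whether the ranges of their 3 libraries overlap, which is no test. Lama5 had ES cells, gPSC4 cells and both EpiLC groups in one overlapping run from 8.84 to 7.42 FPKM, a gap, and then ES-derived PGCLC, gPSC4 PGCLC and PGC in a second overlapping run from 0.232 to 0.0629 FPKM. Lama1 had gPSC4 and ES cells on top, separated from ES-derived and gPSC4 PGCLC. PGC did not overlap with gPSC4 PGCLC, but did with ES-derived PGCLC and with the EpiLC groups at the bottom, and the difference between gPSC4 PGCLC and PGC, 0.38, was not called (limma adjusted p = 0.447). Lamb1 had the EpiLC groups on top and the other 5 groups, from 14.2 to 12.4 FPKM, in overlapping neighbours. Col4a1 ran in order from 5.18 FPKM in PGC to 1.61 FPKM in gPSC4 EpiLC, and ES against gPSC4 cells was its only pair of neighbours that did not overlap, although limma did not call that difference (-0.35, adjusted p = 1).

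Cells of the gPSC4 line and of the ES line were close at each stage. Of the 10 genes limma called 0 between gPSC4 and ES cells (0.00711% of all genes called), 0 between the EpiLC groups (0.0711%) and 0 between the PGCLC groups (0.313%). The differences ran from -0.35 to 0.43, from -0.22 to 0.21 and from -0.45 to 0.51, with SE of 0.07 to 0.29, so differences near 1 could be missed for the noisier genes. At an unadjusted p under 0.05 the 3 comparisons had 0, 0 and 1 gene, the last being Nid1, and limma's voom on the recovered reads also called 0 in each. Against PGC, limma called 0 of the 10 in gPSC4 PGCLC (0.576% of all genes) and 0 in ES-derived PGCLC (0.427%), with 2 genes (Nid1 and Sparc) and 1 gene (Lamc1) at an unadjusted p under 0.05, differences of -0.13 to 0.61 and of -0.30 to 0.70, and 0 called by voom. The test of whether a step differed between lineages called 0 of 10 for the EpiLC step (0.0142% of all genes) and 0 of 10 for the PGCLC step (0.0854%), with 0 at an unadjusted p under 0.05 and 0 by voom in both. The widest such differences were -0.66 for Lamc1 and 0.61 for Nid1 in the PGCLC step. A gene called in one lineage and not in the other is thus not shown to differ between them, and with SE of up to 0.42 differences of some size could be missed.

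**Figure D4:**
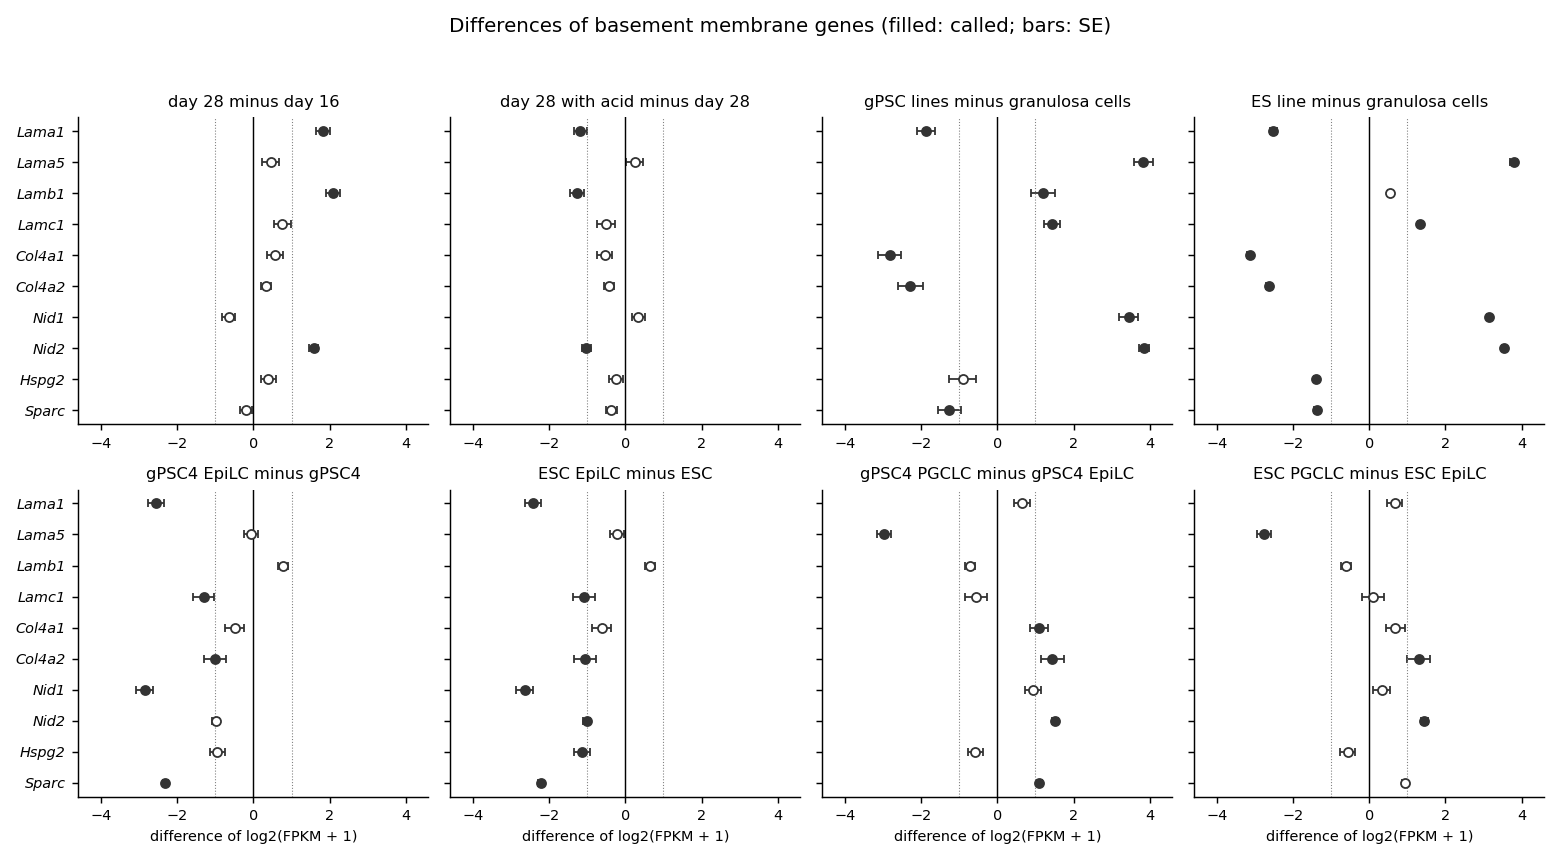
Differences of log2(FPKM + 1) for the 10 genes (rows) in 8 comparisons (panels), with bars for the SE from limma, filled points where the gene was called and dotted lines at the minimum difference of 1. Genes called in both lineages of a step lie on the same side of 0 in both panels, and Lama5 and Nid2 lie on opposite sides in the PGCLC panels.

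Of the 45 genes tested on the 5 wider lists, 21 were called in the EpiLC step of the gPSC4 lineage, beside 20.4% of all genes, and 23 in that of the ES lineage, beside 21%. Other laminin chains fell in 3 of 5 cases in both lineages, among them Lama4 (-1.52 in gPSC4 and -1.49 in ES cells) and Lamb2 (-1.32 and -1.46). Of 8 proteases and inhibitors 5 fell in the gPSC4 lineage and 4 in the ES lineage, with Timp3 (-3.08 and -3.14), Timp2 (-2.74 and -3.01), Htra1 (-2.33 and -2.52) and Timp1 (-1.25 and -1.04) the largest. Of 10 network genes Fbln2 (-2.88 and -3.12), the fibronectin Fn1 (-2.81 and -2.91) and Egfl6 (-2.02 and -2.34) fell and Npnt, an integrin ligand, rose (2.03 and 2.05), with 4 and 5 falling and 1 rising in all. Of 11 receptors the laminin-binding integrin chain Itga3 (2.84 and 2.88) and Ddr1 (1.32 and 1.18) rose, and Sdc4 (-1.95 and -1.99) and Itga7 (-1.13 and -1.59) fell. Of 11 folding genes 1 rose, Pxdn (1.30 and 1.09), and 3 and 4 fell, among them Lox (-2.84 and -2.40), Plod1 (-1.75 and -2.18), Colgalt1 (-1.12 in gPSC4 cells) and Serpinh1 (-1.37 in ES cells). The medians of the laminin list were -1.32 and -1.46, and those of the receptor list 0.40 and 0.04.

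In the PGCLC step 7 of 10 network genes rose in the gPSC4 lineage, beside 15.8% of all genes, and 6 of 10 in the ES lineage, beside 16.7%, with 0 falling. Npnt rose by 3.12 and 2.86, Tinagl1 by 2.88 and 3.48 and Egfl6 by 2.63 and 2.16, and the list's medians were 1.35 and 1.35. Frem2 rose by 1.51 in the gPSC4 lineage and Fbln1 by 1.52 in the ES lineage. Receptors fell in 5 of 11 cases and rose in 1 in both lineages, with Itga3 at -3.15 and -3.10, Bcam at -2.10 and -1.89 and the collagen-binding Itga1 at 1.98 and 2.10. Ddr1 (-1.51 in gPSC4 cells) and Itgb4 (-1.5 in ES cells) were the next largest. Bcam averaged 9.30 FPKM in gPSC4 PGCLC and 41.4 FPKM in gPSC4 EpiLC, and it is a receptor for the Lama5 chain, which fell in the same step. Of 11 folding genes 4 rose in each lineage, Plod1 (1.71 and 2.05), Serpinh1 (1.36 and 1.88), P4ha1 (1.21 in gPSC4 cells) and Colgalt1 (1.39 in ES cells) among them. Plod3 (-1.18, gPSC4) and Lox (-2.54, ES) were among the 3 and 1 that fell. Timp3 rose (1.47 and 1.10) and Ctsl (-1.09 and -1.11) and Timp1 (-1.06 and -1.16) fell among 8 proteases and inhibitors. None of 5 other laminin chains was called by limma.

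PGC against ES cells had 4 of 5 other laminin chains lower, among them Lamb2 (-2.44), Lama4 (-1.25) and Lamb3 (-1.09), and 6 of 8 proteases and inhibitors lower, with Timp1 (-2.56), Htra1 (-2.52), Ctsl (-2.33) and Timp3 (-1.98) in front. Receptors Bcam (-2.74), Itga7 (-2.03) and Itgb4 (-2.0) were lower and Itga1 (2.29) higher. Npnt was higher by 4.93, while Fbln2 (-3.36), Fn1 (-2.18) and Agrn (-1.84) were lower, with 4 of 10 network genes higher and 3 lower. Lox (-4.39) was the one call among 11 folding genes. None of the genes on these 5 lists was called between the gPSC4 and ES lineages at any stage or between PGCLC and PGC.

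Marker lists moved in these steps too. The 8 fibroblast markers all fell in both EpiLC steps and summed to 29.6 to 31.6 FPKM in gPSC4 EpiLC, 32.0 to 42.8 FPKM in ES-derived EpiLC, 339 to 361 FPKM in gPSC4 cells and 459 to 466.1 FPKM in ES cells. They summed to 74.4 to 88.7 FPKM in gPSC4 PGCLC, 84.9 to 95.7 FPKM in ES-derived PGCLC and 76.2 to 94.7 FPKM in PGC. Endothelial and blood markers summed to 164 to 189 FPKM in gPSC4 PGCLC, 149 to 162 FPKM in ES-derived PGCLC, 164 to 177 FPKM in PGC and 10.7 to 16.1 FPKM over both EpiLC groups. Nearly all of the PGCLC and PGC sums came from Pecam1, at means of 161.8, 141.2 and 156 FPKM in that order. Pecam1 also averaged 47.0 FPKM in gPSC4 cells and 42.4 FPKM in ES cells. Gonad soma markers summed to 146 to 185 FPKM over the PGCLC groups, 182 to 203 FPKM in PGC and 34.0 to 51.8 FPKM over the EpiLC groups. Germ cell markers reached 2972 to 3358 FPKM in PGCLC and 3273 to 3318 FPKM in PGC. The part of other cells in the levels of the 10 genes was not tested.

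Ratios between chains within a library do not depend on that library's total and showed how the makeup differed. The ratio of Lama5 to Lama1 was 5.16 to 7.31 in the gPSC lines, against 0.056 in granulosa cells, and 8.63 to 8.91 in ES cells, against 0.0448 in granulosa cells of that table. It was 1.75 to 2.01 with crotonic acid, 0.652 to 0.710 at day 28 and 1.66 to 2.02 at day 16. Within the reprogramming table Lama1 thus had the higher FPKM of these chains only in the day 28 cells without crotonic acid. In the induction table it was 1.06 to 1.36 in gPSC4 and 1.09 to 1.52 in ES cells, 12.46 to 31.1 and 13.7 to 30.6 in their EpiLC, 0.0251 to 0.273 and 0.114 to 0.267 in their PGCLC, and 0.0132 to 0.192 in PGC. The alpha chain with the higher FPKM thus changed from Lama5 in EpiLC to Lama1 in PGCLC, at levels of Lama1 near 1 FPKM. The ratio in ES cells differed between the ES and induction tables. Which chain has the higher FPKM therefore holds within a table only and does not give the ratio of molecules.

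Lamb1 to Lamc1 was 0.579 to 0.602 with crotonic acid, 0.963 to 1.07 at day 28 and 0.366 to 0.413 at day 16, with no overlap between these groups. It was 0.229 to 0.324 in gPSC4 and 0.404 to 0.443 in ES cells, and above 1 in all 6 EpiLC libraries, from 1.02 to 2.19. Nid1 to Nid2 was 2.72 to 2.97 with crotonic acid, 0.879 to 1.17 at day 28 and 5.49 to 5.75 at day 16, again in 3 separate ranges. It was 0.632 to 1.14 in the gPSC lines, 0.573 to 0.729 in gPSC4 and ES cells of the induction table, 0.140 to 0.203 in EpiLC, 0.0544 to 0.142 in PGCLC and 0.0743 to 0.102 in PGC. Col4a1 to Col4a2, the pair with the shared promoter stretch, was 1.27 to 1.36 in the lines, 1.28 to 1.29 in ES cells, 1.91 and 1.81 in the granulosa libraries, 1.00 to 1.05 with crotonic acid, 1.11 to 1.12 at day 28 and 0.86 to 1.06 at day 16. In those tables, where the collagen IV chains had over 40 FPKM, the pair stayed within this range, while in the induction table, with as few as 11 reads of Col4a2, it spread from 0.957 to 7.63.

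**Figure D5:**
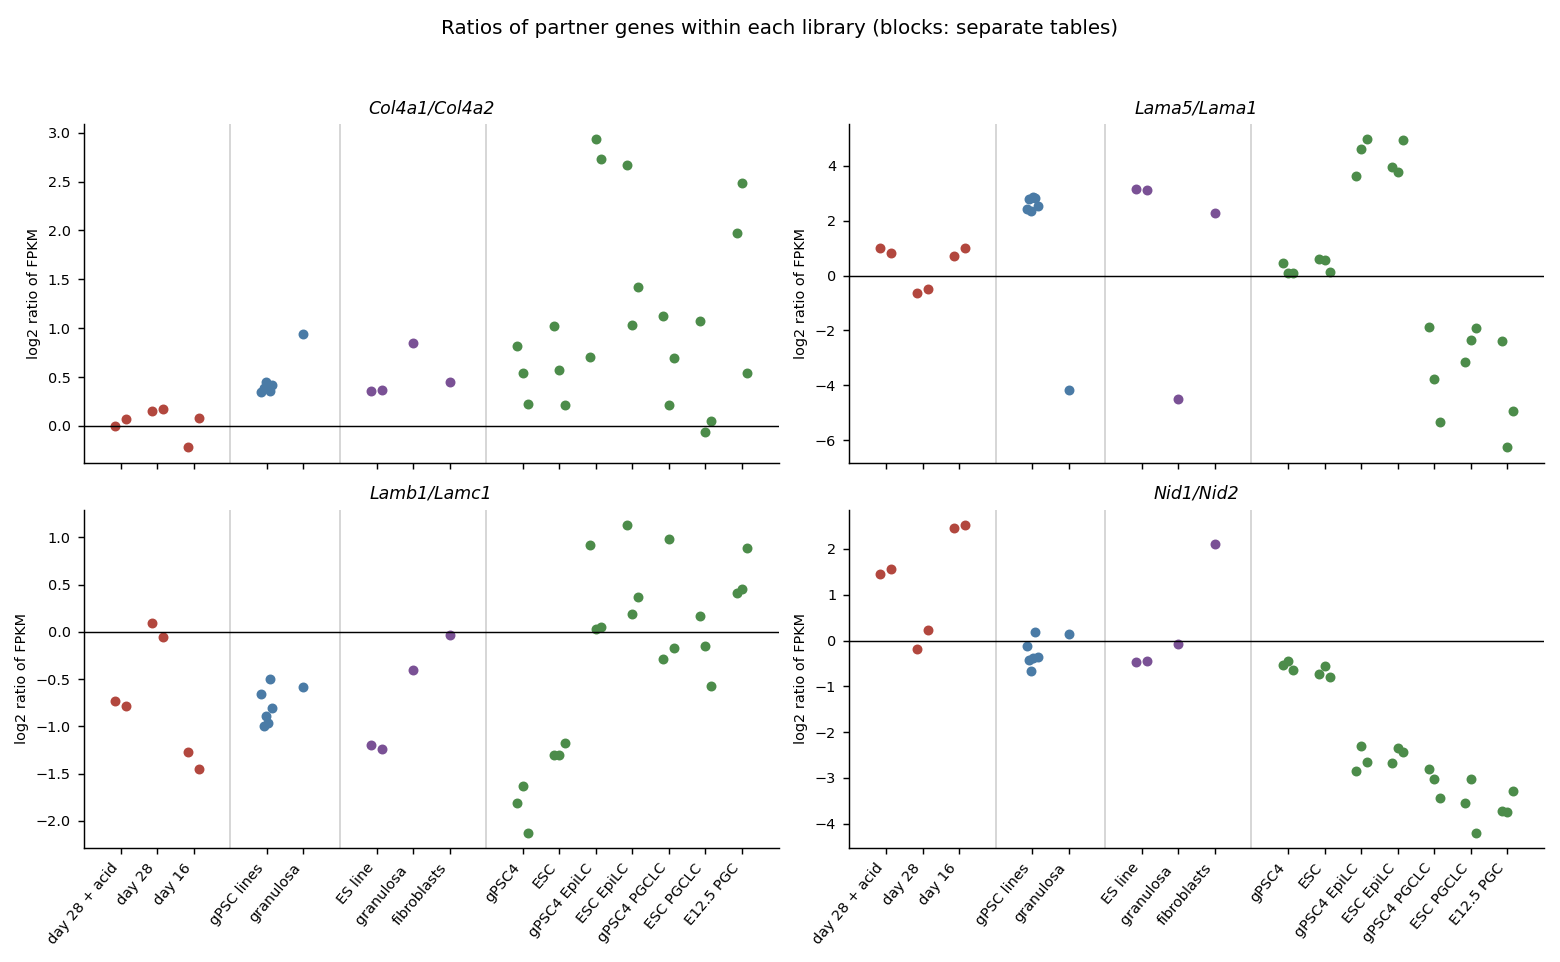
Ratios between chains of a pair within each library, on a log2 axis, by group in 4 tables. Points are libraries. Lama5 to Lama1 spans the widest range, from above 10 in EpiLC to under 0.1 in granulosa cells and some PGCLC and PGC libraries, while Col4a1 to Col4a2 stays between 0.86 and 1.91 outside the induction table.

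Across the 21 libraries of the induction table, which share the 7 groups and so follow the steps between them, the genes most like Lama1 by Pearson's r of log2(FPKM + 1) were Npc2 (0.988), Tbx3 (0.988), Cdc5l (0.987), Cd9 (0.985) and Mapt (0.983), among genes of at least 10 FPKM in their highest group. Of the 10 genes themselves Nid1 came closest to Lama1 (0.965), followed by Sparc (0.951). The genes most like Col4a1 were Ehhadh (0.902), Styx (0.881), Atp5g3 (0.876), Gnpnat1 (0.876) and Sppl2a (0.873), and of the 10 genes Nid2 (0.832) came before Col4a2 (0.662). Over all pairs of the 10 genes r ran from -0.869 for Nid2 and Lamb1 to 0.965 for Nid1 and Lama1, so the genes did not vary as 1 group in these libraries.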

How the data were processed

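Total RNA was sequenced from 39 libraries prepared, per the labels' protocols, with a Qiagen kit and the NEBNext Ultra kit. The authors deposited FPKM values per gene in 5 tables and replicates were not pooled. The submitters' processing notes name mm10, Bowtie2, HISAT2, RSEM, R 3.4.2 and DESeq2, with roles not given in the sources used here. Members were taken by symbol (by Ensembl identifier in the table of a single fibroblast library), and members, lists and tests were chosen with earlier results of these data known. Columns of the ES cells in the induction table and of fibroblasts gave their group, with numbers that could not be tied to one sample title.

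Rows with no gene name, a date in its place or a name shared with another row (12 to 27 a table) were kept under a row number, also in the tests. Within a table, log2(FPKM + 1) was tested with limma 3.58.1 (R 4.3.3; trended empirical Bayes), after keeping genes of at least 1 FPKM in 2 libraries (reprogramming table), 1 (lines and ES tables) or 3 (induction table), and p-values were adjusted by Benjamini-Hochberg over all genes tested. A fold change on the log2(FPKM + 1) scale understates the change of low genes. The 17 comparisons were fitted on all libraries of a table, and scripts were tested on simulated data. In the induction table FPKM values times length gave whole reads within 0.001 for 99.99% of genes, with lengths close to coding lengths (900 bases for Sparc, whose annotated transcript has 2300). In the text, all called genes of a list are named, or the 4 with the largest differences where more were called, along with the 5 genes most like Col4a1 and Lama1, except for a gene of a wider list that is not reported here. Precision is limited by 1 to 6 libraries a group and, outside the induction table, by unknown depth. Promoters are RefSeq's, and a single-library group was assumed to vary like the others.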

Additional observations from a re-analysis of the deposited data

How the results depend on the processing

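Each comparison was refitted with a pseudocount of 0.1, no filter on low values, median-ratio scaling, quantile normalisation, no trend, each library left out, only the compared groups, no minimum difference, and, chosen after seeing the data, transcript-length bins centred and voom on the recovered reads. Of the 688 refits of the 50 called gene results, 34 lost the call and 654 were counted as unchanged. The 654 include the refits of the ES table without an ES library, which have no test and so no call. Those were counted as unchanged because the difference moved by less than its SE. Refits without a minimum difference, also among the 654, could not lose a call. A further 23 results were called in an alternative only, in 44 refits, and none of these 73 changed sign. Of 97 results never called, 31 changed sign in some setting. The number of the 10 genes called with crotonic acid against without it was 3, with 1 without the filter and 0 with any library left out. With crotonic acid against day 16 it was 0, with 3 without a minimum difference and 0 to 2 with a library left out. For EpiLC against stem cells it was 5 in the gPSC4 lineage, with 8 without a minimum difference, and 7 in the ES lineage, with 4 to 7 with a library left out. For PGCLC against EpiLC it was 5 in the gPSC4 lineage, with 9 without a minimum difference and 8 by voom, and 3 in the ES lineage, with 8 without a minimum difference and 6 by voom. The cause was not tested, except that dropping the minimum can only add calls. With 1 FPKM added to both chains, 29 of 64 mean ratios moved by more than their SD.

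Same-numbered libraries correlated at 0.14 to 0.34 in the reprogramming table and at -0.03 to 0.16 in the induction table, so the numbers were not taken to pair libraries. A replicate block left the number of the 10 genes called as it was, at 3, 3 and 0 in the reprogramming table and 5, 0, 3, 5, 0, 0 and 0 in the induction table. No paired analysis was possible for ES cells, gPSC lines or granulosa cells because the numbers in those columns could not be tied to one sample title or are not shared between the groups. Leaving out an ES library in the ES table leaves no residual degree of freedom, so it has no test. Depth limits Col4a2 and Lama5, with as few as 11 and 1 reads a library.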

Other observations

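Setting Sparc against Col4a1 within each library, a ratio chosen after its values were seen, showed a wide gap between tables for cells of the same kind. The ratio was 6.45 to 6.78 in the ES cells of the ES table and 6.24 to 8.45 in the gPSC lines, but 212 to 253 in the ES cells and 294 to 335 in the gPSC4 cells of the induction table. Col4a1 had 67.5 and 71.9 FPKM in the ES cells of the ES table and 3.43 to 3.87 FPKM in those of the induction table, while Sparc had 435 and 488 FPKM and 820.4 to 899 FPKM. The tables were normalised apart. Levels of the induction table are per coding length, 900 bases for Sparc and 4958 for Col4a1, beside annotated transcript lengths of 2300 and 6615 bases, and the length used in the other tables is not given in the sources used here. The part of this in the gap was not tested. The ratio was 2.49 to 3.13 with crotonic acid, 2.40 to 2.55 at day 28, 3.25 to 5.43 at day 16 and 2.52 and 1.92 in the granulosa libraries.

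Cells of the same kind also differed between tables in the makeup of the laminin alpha chains. The ratio of Lama5 to Lama1 was 8.63 to 8.91 in the ES cells of the ES table and 1.09 to 1.52 in those of the induction table, and line gPSC4 had 33.0 FPKM of Lama5 and 5.75 FPKM of Lama1 in the lines table, with 7.48 to 9.71 FPKM and 7.03 to 7.37 FPKM in the induction table. Whether these are the same passages of a line is not given in the labels.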
